A study of Mus musculus with 12 samples.

Results

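The genes described here encode the proteins of the mitochondrial ribosome, read across 12 muscle libraries of male C57BL/6 mice. They were taken by symbol: every protein-coding gene of the deposited count table whose name begins with Mrpl or Mrps followed by a digit, 78 of the 47729 genes in the table. A further 5 pseudogenes with such names, which held between 0 and 57 counts over all libraries, were left out. The libraries fall into 4 groups of 3, all from mice aged 5 months: wild-type sedentary, wild-type treadmill, NRF2-KO sedentary and NRF2-KO treadmill. NRF2, the product of Nfe2l2, is a transcription factor of antioxidant defence. The study asked how muscle of the wild-type strain and of the knockout differs after physical exercise. The labels leave out which muscle was sampled, how long the animals ran and how the knockout was made. They do not state that each library is a separate animal, so p-values cover no more than the spread between libraries, which may be technical.

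Mitochondria keep their own ribosome, which translates the few mRNAs of the mitochondrial genome, all of them for membrane subunits of oxidative phosphorylation. Its RNAs come from mitochondrial DNA, but every one of its proteins is encoded in the nucleus, made in the cytosol and imported. Some of these proteins descend from bacterial ribosomal proteins and others exist only in mitochondria. In muscle, a tissue rich in mitochondria, transcription of such nuclear genes is known to be driven by ETS factors such as GABP, by nuclear respiratory factor NRF1, by YY1 and by the oestrogen-related receptors together with PGC-1 coactivators. NRF1 is not related to the NRF2 deleted here, which binds antioxidant response elements.

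Symbols and structure do not match everywhere. By symbol there are 49 Mrpl and 29 Mrps genes, whereas by the place of the protein in the ribosome 51 belong to the large subunit, 26 to the small subunit and 1 to neither. Mrps30 (protein mL65) and Mrps18a (mL66) are large-subunit proteins. Mrps36 encodes a component of the 2-oxoglutarate dehydrogenase complex and was assigned to neither subunit, although counts over 77 members include it. Of the ribosomal proteins 46 were classed as having a bacterial homologue and 31 as specific to mitochondria. The latter class includes mL66 and mS40 (Mrps18b), although both are paralogs of bacterial protein S18. The filter on low counts kept 77 members. Mrpl53 was the one left out, with 6 counts over 12 libraries, and all of its 50-base stretches also occur in transcripts of Gm42688 on the same strand, so its level cannot be read from these counts.

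The promoters of 69 members were matched to RefSeq windows on GRCm38, from 250 bases before to 50 bases after the annotated start, and searched on both strands. The ETS motif CCGGAAG was found in 26 of the 69 (37.7%), against 12.9% of 17491 protein-coding genes with windows of the same length. The NRF1 motif (GCGCA, then any base, then GCGC) was found in 13 (18.8%, against 7.17%) and the YY1 motif AAGATGGCG in 8 (11.6%, against 2.14%). A core of the antioxidant response element, TGACNNNGC, was found in 14 (20.3%, against 14.8%). In all, 41 of the 69 members held an ETS, NRF1 or YY1 match and 28 held none of them. Member windows were 59.0% G and C on average and those of all protein-coding genes 56.2%, and the motifs searched differ in their own base content. Such a match is a stretch of letters and not an observed binding site.

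The promoters of 4 members that carry the results below are shown from 180 bases before to 30 bases after the start, 5′ to 3′ on the gene's strand, with matches in capitals. Mrpl14 (chr17:45686169-45686378, plus strand) has the smallest p of any member in the averaged knockout comparison below, and its capitals mark an NRF1 match. In Mrps26 (chr2:130563577-130563786, plus strand), the member with the next smallest p there, the first capitals mark an ETS match on the opposite strand and the later ones a pair of overlapping NRF1 matches. Mrps12 (chr7:28741792-28742001, minus strand) starts 172 bases from Sars2, a mitochondrial seryl-tRNA synthetase gene transcribed the other way, and has an ETS match. Mrpl33 (chr5:31613771-31613980, plus strand) is the member that differed most between libraries and also has an ETS match.

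Mrpl14: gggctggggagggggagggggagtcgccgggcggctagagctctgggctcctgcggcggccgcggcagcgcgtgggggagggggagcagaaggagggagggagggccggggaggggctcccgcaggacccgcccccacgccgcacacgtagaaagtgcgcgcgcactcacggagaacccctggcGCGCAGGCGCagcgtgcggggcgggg

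Mrps26: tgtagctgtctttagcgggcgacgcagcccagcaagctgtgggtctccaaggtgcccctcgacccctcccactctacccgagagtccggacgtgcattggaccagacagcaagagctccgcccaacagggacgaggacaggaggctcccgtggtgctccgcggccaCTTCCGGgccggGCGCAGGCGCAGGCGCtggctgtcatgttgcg

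Mrps12: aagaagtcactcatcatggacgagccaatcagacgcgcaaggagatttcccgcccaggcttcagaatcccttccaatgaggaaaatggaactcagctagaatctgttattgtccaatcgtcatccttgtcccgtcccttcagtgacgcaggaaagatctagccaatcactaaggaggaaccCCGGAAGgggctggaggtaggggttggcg

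Mrpl33: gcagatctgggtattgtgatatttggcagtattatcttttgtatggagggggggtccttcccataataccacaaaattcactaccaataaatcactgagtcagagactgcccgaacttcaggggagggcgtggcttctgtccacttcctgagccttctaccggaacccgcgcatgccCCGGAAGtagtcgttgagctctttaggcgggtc

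Members lie on 17 chromosomes, with 11 on chromosome 11. Head-to-head pairs were counted where an opposite-strand gene starts within 1000 bases on the upstream side, with only a short overlap allowed. They were found for 23 of 78 members (29.5%) and for 1870 of 21697 protein-coding genes (8.62%). Mrpl46 and Mrps11, which share 173 exonic bases, overlap by more than was allowed and were not counted. A few of the 23 pairs serve as examples, chosen after the list was seen. The starts of Mrpl36 and Ndufs6, a complex I subunit gene, are 29 bases apart. Those of Mrps27 and Ptcd2, which encodes a pentatricopeptide repeat protein, are 81 bases apart, and those of Mrpl49 and Fau, which encodes a cytosolic ribosomal protein, 59 bases. For 28 members an opposite-strand gene shares exonic bases, and reads of such pairs cannot be told apart because the library kit does not mark strand.

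Levels are given as CPM, the counts scaled by library total and normalization factor. Libraries held 21232040 to 29990968 counts, and the filter left 14194 genes to test. Nfe2l2 matched the genotype labels throughout, with 830 to 1275 counts in wild-type and 54 to 84 in knockout libraries. The tissue label held as well, since all 10 skeletal muscle fibre markers were measured and summed to 142100 to 164900 CPM in every library. Wild-type sedentary replicate 1 and wild-type treadmill replicate 1 stood apart from the rest. They were sequenced on lanes 7 and 8, which held no knockout library, and the other 10 libraries were on lanes 3 and 4. On the first principal component (21.2% of variance) they lay at -32.3 and -29.8 and the others between -3.18 and 15.1. The main counts and medians are therefore also given without these 2 libraries where they differ.

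Together the members took 0.273% to 0.304% of all counts. Per kilobase of exon, the tested members had a median level of 12.9 CPM and spanned a wide range. At the top stood Mrps21 (bS21m) with 90.4 ± 5.32 CPM per kb (SD over 12 libraries), followed by Mrps28 (bS1m) with 69.5 ± 3.84, Mrpl42 (mL42) with 64.0 ± 5.97, Mrpl12 with 56.8 ± 4.92 and Mrpl54 (mL54) with 56.6 ± 3.36. The last pair differed by less than their spread between libraries. Mrpl12 (bL12m) forms the stalk that recruits translation factors and is also known to bind the mitochondrial RNA polymerase.

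At the bottom stood Mrpl23 with 0.267 ± 0.0477 CPM per kb, and 76.4% of its 50-base stretches are shared with its pseudogene Mrpl23-ps1, so its counts are uncertain. Above it came Mrpl33 with 2.15 ± 1.48, Mrps35 with 2.43 ± 0.125, Mrps10 with 2.58 ± 0.185 and Mrpl19 with 2.65 ± 0.174 CPM per kb. In all, 11 members shared over 20% of such stretches with other genes, among them Mrps10 (24.8%). The order depends on the length used, here that of all annotated exons merged. By the principal transcript's length, a choice made after seeing the data, Mrpl33 had 33.0 and Mrps10 20.5 CPM per kb, while Mrps35 and Mrpl19 stayed near the bottom. Large-subunit members had a median of 14.1 and small-subunit members of 6.55 CPM per kb, and by principal transcript 21 and 14.3.

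**Figure D1:**
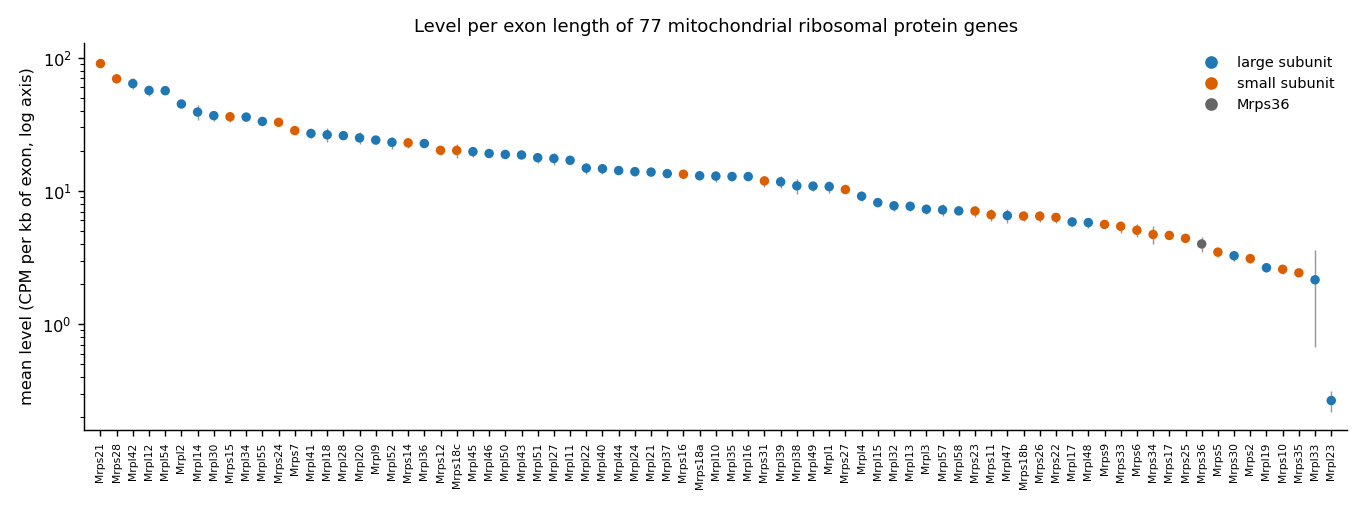
Mean level of the 77 tested members in CPM per kb of merged exons (log axis), ordered from high to low, with bars of 1 SD over 12 libraries. Points are coloured by subunit. Mrps21 is highest at 90.4 and Mrpl23 lowest at 0.267, and the bar of Mrpl33 is the widest relative to its level.

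The 3 paralogs of bacterial protein S18 differed in level. Mrps18a, whose protein sits in the large subunit, had 13.0 ± 0.617 CPM per kb. Mrps18c, the counterpart in the bacterial position, had 20.1 ± 2.38, and Mrps18b 6.48 ± 0.581 CPM per kb. By principal transcript the order changed, with Mrps18a first at 54.3, Mrps18c at 33.9 and Mrps18b lowest at 12.5 CPM per kb. Their averaged knockout effects were log2 fold changes of -0.01, 0.07 and 0.07 with SEs of 0.05 to 0.10.

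Members varied little between libraries. The median SD of log2 CPM over 12 libraries was 0.114 for members and 0.176 for all genes tested. An SD under 0.15 was found for 62 of 77 members (80.5%) and for 39.6% of all genes. This comparison was not matched for expression level, on which the spread of counts depends, and members had a median of 29.0 CPM. The shares of intervals given below were not matched for level either. The steadiest were Mrpl2 (uL2m), which lies next to the peptidyl transferase centre, with an SD of 0.05, Mrpl44 (mL44), whose human counterpart is a mitochondrial disease gene, with 0.06, and Mrpl37 (mL37) with 0.06. Mrpl2 ran from 49.6 to 55.1 CPM over all 12 libraries. The most variable members of at least 5 CPM were Mrpl33 (0.71), Mrps34 (0.21) and Mrps36 (0.20).

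In wild-type libraries the members summed to 2683, 2868 and 3052 CPM in the sedentary and 2854, 3064 and 3044 CPM in the treadmill group. In the knockout the sum was 2842, 2915 and 2856 CPM in sedentary and 2749, 3057 and 2876 CPM in treadmill muscle. All 4 groups overlapped, and the lowest library was wild-type sedentary replicate 1, on lane 7. Group means were 2868 ± 185, 2987 ± 116, 2871 ± 38.7 and 2894 ± 155 CPM (SD, n = 3) in that order.

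The large subunit's summed level stood in a nearly constant ratio to that of the small subunit. The ratio had group means of 2.69 ± 0.0163 and 2.66 ± 0.025 in wild-type sedentary and treadmill muscle, and 2.68 ± 0.0535 and 2.67 ± 0.00608 in the knockout groups (SD, n = 3). All 12 libraries lay between 2.63 and 2.73. Libraries differed in how many members were high: 64 and 60 of 77 exceeded their own 12-library mean in wild-type treadmill replicates 2 and 3 and 57 in wild-type sedentary replicate 3. By contrast 12 did so in knockout treadmill replicate 1 and 23 in wild-type sedentary replicate 1. Within the knockout treadmill group this number was 12, 56 and 34, so libraries of a single group differed as much as groups did.

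**Figure D2:**
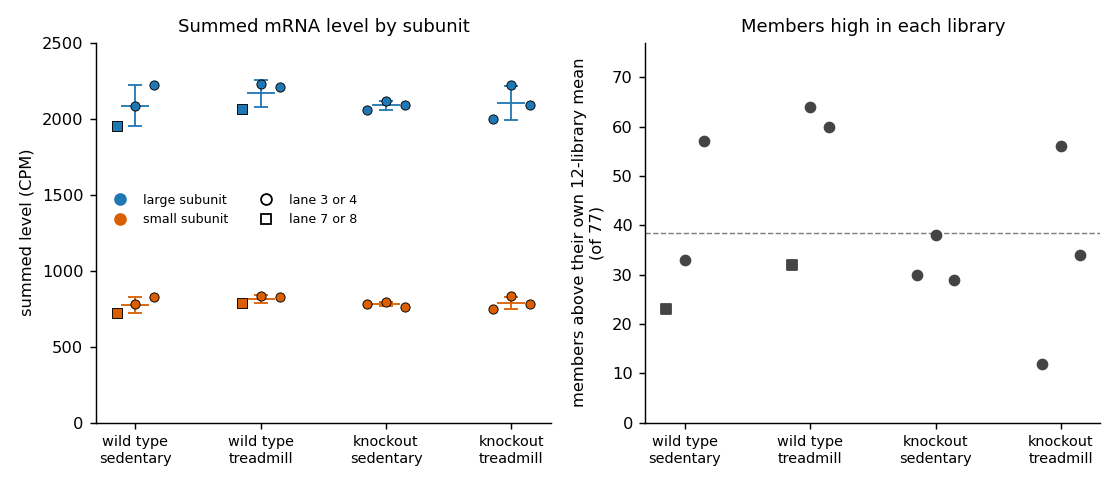
Left, summed level in CPM of large-subunit (blue) and small-subunit (orange) members in each library, with the mean and 1 SD of each group of 3. Right, the number of 77 members above their own mean over 12 libraries, with a dashed line at the middle. Squares are the libraries of lanes 7 and 8. Groups overlap in both panels, and knockout treadmill replicate 1 has the lowest number, 12.

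Loss of NRF2 was compared first, averaged over both exercise states (n = 6 per genotype). No member passed at an adjusted p of 0.05 (edgeR's quasi-likelihood test, Benjamini-Hochberg over all genes), where 98 of 14194 genes did (0.69%). DESeq2 called 1 member, Mrpl14, and limma-voom 0, but their shares over all genes are not given here. At an unadjusted p under 0.05 there were 12 members, all lower in the knockout, against 12.4% of all genes in either direction and 6.89% in the lower one. The median log2 fold change was -0.02 for members and 0.01 for all genes tested. Below 0 lay 49 of 77 members, against 47% of all genes. With each library left out in turn, the members' median ranged from -0.0479 to 0.00114, highest without knockout treadmill replicate 1. For 76 of 77 members the 95% interval stayed within 1.5-fold either way (80.5% of all genes), and for 67 within 1.25-fold (50.5%). Large- and small-subunit members had medians of -0.01 and -0.02. Those with bacterial homologues had -0.02 and those specific to mitochondria -0.01. In bulk tissue, fewer cells of a type and less RNA per cell cannot be told apart.

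The libraries of lanes 7 and 8 are both wild type, so the comparison was repeated without them. The median of members was then -0.06, with 67 of 77 below 0 against 47.6% of all genes. No member passed there, where 158 genes (1.11%) did. With lane as a term in the fit the median was -0.06 with 67 below 0, and 1 member passed, Mrpl14, where 264 genes (1.86%) did. Lanes 7 and 8 were joined as a single level of that term, without a knockout library. This fit therefore rests largely on the same 10 libraries. Within lane 3, where 3 knockout libraries met 2 wild-type ones, 62 of 77 members were lower in the knockout (80.5%, against 49.4% of all genes). Within lane 4, with the same numbers, 63 were (81.8%, against 48.8%). The median difference was -0.06 in both lanes. These lanes make up the same 10 libraries, and members rose and fell together within libraries, so such counts are not independent. In lane 3 the knockout libraries were sedentary replicates 1 and 2 and treadmill replicate 1. In lane 4 they were sedentary replicate 3 and treadmill replicates 2 and 3. Each lane held 1 wild-type library of each exercise state, so exercise was not balanced between genotypes. Lane 3 included knockout treadmill replicate 1, where the fewest members exceeded their own mean. Macrophage and matrix markers moved opposite to the members in the fit without the libraries of lanes 7 and 8. All 12 macrophage and antigen presentation markers lay above 0 there (median 0.37), as did all 10 extracellular matrix and fibroblast markers (median 0.29). Their summed levels over the 10 libraries overlapped between genotypes, and their part in the members' tilt was not tested.

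**Figure D3:**
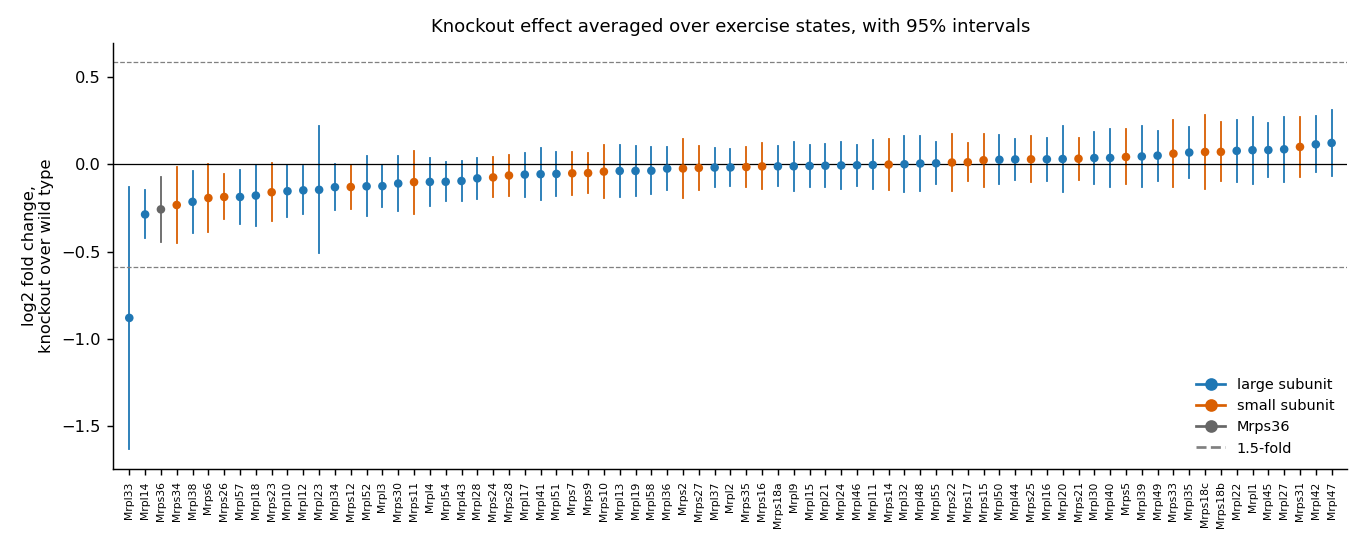
Log2 fold change of each of the 77 tested members in knockout over wild-type muscle, averaged over exercise states, with 95% intervals, ordered from low to high and coloured by subunit. Dashed lines mark 1.5-fold. Only the interval of Mrpl33 reaches past a dashed line, and 12 intervals, among them those of Mrpl14, Mrps36 and Mrps26, stay below 0.

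Mrpl14 was the member with the smallest p in the averaged comparison over all 12 libraries. Its protein, uL14m, lies at the interface of the subunits and in human mitochondria binds the assembly factor MALSU1. Wild-type libraries had 42.0, 37.6 and 41.9 CPM in the sedentary and 40.7, 39.1 and 42.9 CPM in the treadmill group. In the knockout it had 33.9, 35.2 and 37.6 CPM in sedentary and 27.9, 35.0 and 31.0 CPM in treadmill muscle. The treadmill groups did not overlap, and in the sedentary groups the highest knockout library lay level with the lowest wild-type one. The averaged log2 fold change was -0.29 (SE 0.06, 95% interval -0.42 to -0.15), which is 1.22-fold lower, with an adjusted p of 0.0575 by edgeR's quasi-likelihood test.

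This value sits at the threshold, and the side depends on the fit. The adjusted p was 0.0335 with the replicate number as a block, a pairing that was not established between genotypes. It was 0.0139 with lane as a term, 0.0075 by DESeq2 and 0.00379 without the filter on low counts. It was 0.0598 with RLE normalization, 0.055 by limma-voom and 0.0841 without the libraries of lanes 7 and 8. When each library was left out in turn it ranged from 0.0325 to 0.162, and 1 of 12 such fits passed. The size of the difference moved less, between -0.34 and -0.25 over the same left-out libraries, and it was -0.25 within lane 3 and -0.30 within lane 4. Tmem63b, whose exons overlap Mrpl14 on the opposite strand by 106 bases, had a log2 fold change of -0.09 (adjusted p = 0.558).

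Mrps26 (mS26), a small-subunit protein specific to mitochondria, had the next smallest p. Wild-type libraries had 28.4, 29.2 and 29.0 CPM in the sedentary and 32.7, 31.5 and 29.2 CPM in the treadmill group. Knockout libraries had 25.2, 29.4 and 26.5 CPM in sedentary and 25.4, 28.0 and 23.9 CPM in treadmill muscle. Treadmill groups were separate and sedentary groups overlapped. Its averaged log2 fold change was -0.19 (SE 0.06, adjusted p = 0.211 by edgeR's quasi-likelihood test).

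Mrps36, the dehydrogenase component, had 5.63, 5.22 and 5.43 CPM in the wild-type sedentary and 6.16, 5.77 and 4.98 CPM in the wild-type treadmill group. In the knockout it had 4.23, 4.61 and 3.73 CPM in sedentary and 5.00, 5.10 and 5.27 CPM in treadmill muscle. Knockout sedentary libraries were the lowest 3 of the 12. The knockout effect in sedentary muscle was -0.37 (SE 0.12, adjusted p = 0.449), and 36.2% of the gene's 50-base stretches are shared with other transcripts.

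Among the other members of known function, Mrpl12 had an averaged log2 fold change of -0.15 (SE 0.06, adjusted p = 0.367) and ran from 72.4 to 92.2 CPM in knockout and 86.2 to 98.7 CPM in wild-type libraries. Mrps12 (uS12m), which lines the decoding centre, had -0.13 (SE 0.06) and Mrpl3 (uL3m), a human disease gene, -0.12 (SE 0.06). Mrps30 had -0.11 (SE 0.07), and differed by -0.17 within lane 3 and -0.23 within lane 4. Values close to 0 were found for Mrpl58, the peptidyl-tRNA hydrolase that became a ribosomal subunit (-0.04, SE 0.06), and for the disease genes Mrpl44 (0.03, SE 0.05), Mrps16 (-0.01, SE 0.06) and Mrps22 (0.01, SE 0.08). Highest of all members were Mrpl47 (uL29m) at 0.12, Mrpl42 at 0.11 and Mrps31 (mS31) at 0.10, none of which passed. They were 0.07 without wild-type treadmill replicate 1 for Mrpl47, and 0.05 and 0.03 without wild-type sedentary replicate 1 for Mrpl42 and Mrps31.

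**Figure D4:**
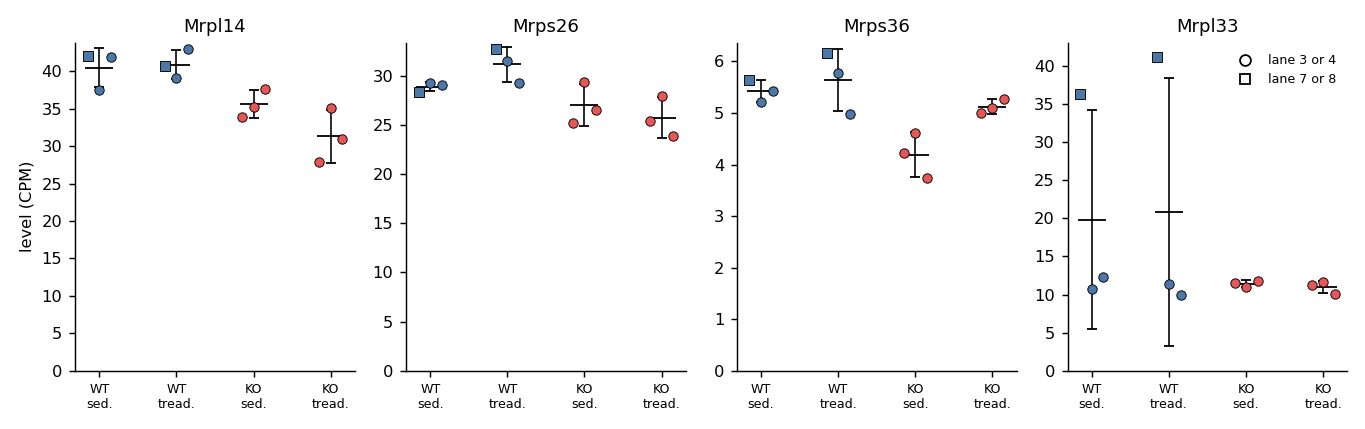
Level in CPM of Mrpl14, Mrps26, Mrps36 and Mrpl33 in each library, with the mean and 1 SD of each group of 3. Blue points are wild type and red points knockout, and squares are the libraries of lanes 7 and 8. Mrpl14 is lower in every knockout treadmill library than in any wild-type one, and Mrpl33 is high in the squares alone.

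Mrpl33 (bL33m) had the largest fold change of all members, and it rested on the same 2 libraries. It had 36.4 CPM in wild-type sedentary replicate 1 and 41.2 CPM in wild-type treadmill replicate 1, and 9.92 to 12.3 CPM in the other 10 libraries. The averaged knockout effect was -0.88 (SE 0.35, adjusted p = 0.324), and with lane as a term it was 0.01 (SE 0.08). Between lanes 7 and 8 and lanes 3 and 4 the gene was 3.49-fold higher (log2 fold change 1.8, SE 0.09, adjusted p = 5.08e-08). A share of 30.3% of its 50-base stretches also occurs in Gm43809, which had 0 counts in all libraries. Rps7, a cytosolic ribosomal protein gene chosen after its values were seen, showed the same kind of split, with 30.4 and 34.4 CPM in these libraries and 0.426 to 0.940 CPM in the other 10.

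Including Mrpl33, 24 of 77 members differed between these lanes by the same test, 20 lower and 4 higher in lanes 7 and 8, where 18.9% of all genes did (9.5% lower and 9.43% higher). The lower ones included Mrpl1 (-0.40), Mrps18c (-0.37) and Mrps31 (-0.36), and the higher ones Mrps34 (0.36) and Mrpl18 (0.32). In the same 2 libraries all 7 measured mitochondrially encoded mRNAs were lower, and 9 of 12 macrophage and antigen presentation markers and 8 of 10 extracellular matrix markers were higher. Lane, library preparation and the animals cannot be told apart here, because each of these lanes held a single library. The part of those other genes in the members' values was not tested.

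The knockout effect was also read within each exercise state. In sedentary muscle no member passed, where 27 genes (0.19%) did, and 1, Mrps36, had an unadjusted p under 0.05 (7.65% of all genes). DESeq2 and limma-voom called none of the members. The median was 0.00 with 40 of 77 members above 0, against 53% of all genes. Without the libraries of lanes 7 and 8 it was -0.05 with 57 of 77 below 0, against 49.8% of all genes. Mrps33 (mS33) was highest at 0.19, Mrpl42 at 0.16 and Mrps31 at 0.12. Without wild-type sedentary replicate 1 these values were 0.06, 0.04 and -0.0045. Lowest after Mrpl33 and Mrps36 was Mrps6 (bS6m) at -0.24. Leaving out replicate 1 of the knockout sedentary group gave -0.15 for it, and leaving out replicate 3 gave -0.35. The 3 knockout libraries were all below the 3 wild-type ones for Mrpl28, Mrpl37, Mrpl57, Mrps12 and Mrps36 (5.48% of all genes) and all above them for Mrps33 (6.47%). Counts of 5 and 1 among 77 members are close to or below those shares.

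In treadmill muscle no member passed either, where 23 genes (0.162%) did, and 4 had an unadjusted p under 0.05, all lower (6.72% of all genes in either direction). DESeq2 called 1, Mrpl14, and limma-voom 0, with no share over all genes given for either. The median was -0.04, with 53 of 77 members below 0 against 48.3% of all genes. Without the libraries of lanes 7 and 8 it was -0.06 with 69 below 0, against 47.7%. All 6 erythroid markers lay below 0 as well, with a median of -0.62; their summed level was 200 to 371 CPM in knockout treadmill libraries, and its part was not tested. Mrpl14 had -0.39 (SE 0.09, adjusted p = 0.218) and Mrps34 (mS34) -0.31 (SE 0.14). Without wild-type treadmill replicate 1, on lane 8, the value of Mrps34 was -0.14, and without replicate 3 of the same group -0.45. Of its 2064 exonic bases, 1309 overlap exons on the opposite strand, where Mapk8ip3 lies, and 763 overlap exons on the same strand, where Nme3 lies. The counts of Mrps34 are therefore uncertain. Knockout libraries were all lower for Mrpl14, Mrpl34, Mrpl54, Mrps26 and Mrps35, 5 of 77 members against 7.16% of all genes. At the other end Mrpl47 had 0.16, Mrps18c 0.11 and Mrps18b 0.10. Mrpl47 had 0.05 without wild-type treadmill replicate 1, Mrps18c 0.02 without knockout treadmill replicate 2 and Mrps18b 0.0036 without knockout treadmill replicate 3. With lane as a term, a fit that rests largely on the libraries of lanes 3 and 4, 73 of 77 members lay below 0 (49.2% of all genes). Their median was -0.08. Mrpl14 passed in that fit (adjusted p = 0.0149), where 103 genes did (0.726%).

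**Figure D5:**
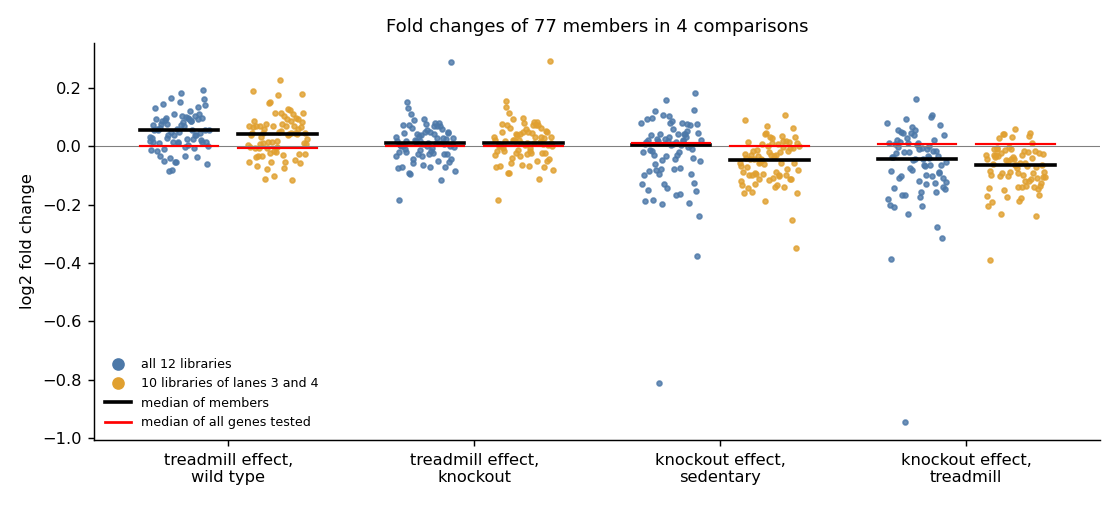
Log2 fold change of each of the 77 members in 4 comparisons, fitted on all 12 libraries (blue) or on the 10 libraries of lanes 3 and 4 (yellow). Black lines are the medians of members and red lines the medians of all genes tested. Medians of members lie slightly above 0 for treadmill in wild type and below 0 for the knockout effect in treadmill muscle.

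Treadmill exercise in wild-type muscle gave no call among the members and none among all 14194 genes (0%), with 1 member at an unadjusted p under 0.05 against 2.17% of all genes. DESeq2 and limma-voom also called no member. Members leaned to the higher side: their median was 0.06 on the log2 scale and 62 of 77 lay above 0, against 50.9% of all genes. Without the libraries of lanes 7 and 8 the median was 0.04 with 52 above 0, against 48.1% of all genes. Erythroid markers, which follow blood in the tissue, also differed here: all 6 lay above 0 with a median of 0.62, and none passed. Their summed level was 217 to 305 CPM in sedentary and 352 to 478 CPM in treadmill libraries, without overlap. Their part in the members' values was not tested. The large and small subunits had medians of 0.05 and 0.07. Mrps33 had 0.19 (SE 0.13), Mrpl51 (mL51) 0.18 (SE 0.08) and Mrpl39 (mL39) 0.17 (SE 0.12). Without wild-type sedentary replicate 1, on lane 7, Mrps33 had 0.08 and Mrpl39 0.07, and without wild-type treadmill replicate 3 Mrpl51 had 0.10. At the lower end Mrpl36 (bL36m) had -0.09, Mrpl4 (uL4m) -0.08 and Mrps6 -0.06, and without wild-type sedentary replicate 1 the latter pair turned to 0.0039 and 0.02. Treadmill libraries were all above sedentary ones for Mrpl51, Mrps24, Mrps26 and Mrps35, 4 of 77 members against 2.85% of all genes. For 76 of 77 members the interval stayed within 1.5-fold (70.2% of all genes).

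In knockout muscle the treadmill effect had a median of 0.01 with 48 of 77 members above 0 (49.9% of all genes). There were no calls among members or among all genes, and 1 member had an unadjusted p under 0.05 against 3.76% of all genes. Mrps36 was highest at 0.29 (SE 0.12, unadjusted p = 0.034 by the same test) and Mrpl14 lowest at -0.18 (SE 0.09), which was -0.11 without knockout treadmill replicate 1. Treadmill libraries were all higher for Mrpl24, Mrpl30, Mrps14, Mrps17 and Mrps36, 5 of 77 members against 5.75% of all genes, and all lower for Mrpl3 (6.76%). The test of the difference between genotypes in the treadmill effect called no member and no gene, and at an unadjusted p under 0.05 there were 0 members and 270 genes (1.9%). Members had a median of -0.05 in it, with 23 of 77 above 0 against 48.1% of all genes. Without the libraries of lanes 7 and 8 the median was -0.03 with 30 above 0, against 51.8%. All 6 erythroid markers lay below 0 in this test, with a median of -1.17. Its intervals were wide, and 20 of 77 stayed within 1.25-fold (13.1% of all genes). Averaged over genotypes, the treadmill effect had a median of 0.03 with 56 of 77 members above 0 (48.9% of all genes). No member or gene was called there, 0 members had an unadjusted p under 0.05 (4.15% of all genes), and 74 of 77 intervals stayed within 1.25-fold (56.2%). With lane as a term no member was called for any treadmill effect, while 26 genes (0.183%) were called in knockout muscle and 28 (0.197%) in the averaged comparison.

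Other genes of mitochondrial translation were read by the same fit. In the averaged knockout comparison, 0 of 5 ribosome subunits with other symbols, 0 of 15 translation factors, 0 of 26 assembly and rRNA modification factors and 0 of 17 mitochondrial aminoacyl-tRNA synthetases passed. Their medians were 0.01, 0.02, -0.02 and -0.00, beside 0.01 for all genes. Tufm, the elongation factor that delivers aminoacyl-tRNA, had -0.18 (SE 0.08, adjusted p = 0.374), and Mpv17l2, which takes part in ribosome assembly, -0.21 (SE 0.08, adjusted p = 0.31). Gadd45gip1, which encodes the large-subunit protein mL64, had -0.16 (SE 0.07, adjusted p = 0.402), with -0.00 in sedentary and -0.32 in treadmill muscle. All 74 measured cytosolic ribosomal proteins and all 7 mitochondrially encoded mRNAs also failed to pass, with medians of 0.03 and 0.08.

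Among 12 regulators of nuclear mitochondrial genes, 1 passed. Esrra, which encodes the oestrogen-related receptor alpha, had 99.9, 90.5 and 94.8 CPM in the wild-type sedentary and 97.7, 93.9 and 92.8 CPM in the wild-type treadmill group. Knockout libraries had 82.7, 82.8 and 81.0 CPM in sedentary and 68.9, 77.4 and 72.0 CPM in treadmill muscle. Every knockout library lay below every wild-type one. The transcript fell by 0.30 on the log2 scale in the averaged comparison (SE 0.05, adjusted p = 0.00968 by edgeR's quasi-likelihood test), a call that held without each library in turn (adjusted p up to 0.0437). In treadmill muscle it fell by 0.38 (SE 0.07, adjusted p = 0.0459), but this call was kept in only 1 of 12 fits with a library left out, where the adjusted p ranged from 0.0213 to 0.391. The call also held with lane as a term and without the libraries of lanes 7 and 8 in both comparisons.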

How the data were processed

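The authors deposited raw counts per Ensembl gene for 12 libraries, 1 column per sample, and all values rest on them. Libraries came from the TruSeq RNA kit v2, per the labels' protocols. The submitters' processing notes name featureCounts 1.4.6-p4, STAR 2.4.1d and bcl2fastq 1.8.4, and GRCm38 as build. How featureCounts treated strand and multi-mapping reads is not given in the sources read. Deposited RPKM values were not used.

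Symbols and exons came from GENCODE M21, which matched 47310 of 47729 rows. The test was edgeR's quasi-likelihood test (version 4.0.16, R 4.3.3) with TMM, filterByExpr (minimum count 10, minimum total 15; 99.94% of counts kept), 1 coefficient per group, 8 residual degrees of freedom, Benjamini-Hochberg over all genes, threshold 0.05 and a common biological coefficient of variation of 0.112. It was run for 7 comparisons and checked on simulated counts. Medians over members have no test. The members, lists and rule for named genes (calls, the 3 largest changes each way per comparison, the 5 highest and lowest levels per kb, the 3 steadiest and most variable, and fixed genes) were chosen with earlier results of these data known. Alternatives were RLE normalization, no filter, DESeq2 1.42.0, limma-voom 3.58.1, lane as a term, leaving out lanes 7 and 8 or each library, and a replicate block. Lanes 7 and 8 were joined as a single level of the lane term. Deviations of same-numbered wild-type libraries correlated at 0.52, 0.28 and 0.24. In every other pair of groups at least 1 such correlation lay below 0.1. In wild type the numbers coincide with lanes, so pairing and lane cannot be told apart. In the knockout they do not, since sedentary replicate 2 was on lane 3 and treadmill replicate 2 on lane 4. The replicate block also joined knockout to wild-type libraries of the same number, where correlations ran from -0.086 to 0.26. The main fit used no block.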

Additional observations from a re-analysis of the deposited data

How the results depend on the processing

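Counts of members past the threshold stayed at 0 in most fits. Without a filter on low counts 1 member passed for the knockout effect in sedentary muscle, 2 in treadmill muscle and 2 in the averaged comparison. These were Mrpl33 and Mrpl14, and Mrpl33, high in 2 wild-type libraries alone, had an adjusted p of 1.27e-23 there by edgeR's quasi-likelihood test. DESeq2 and the fit with lane as a term each called 1 in treadmill muscle and 1 in the averaged comparison. Leaving out each library in turn gave 0 to 1 in the averaged comparison. Shares over all genes are not given for DESeq2, the unfiltered fit or the left-out libraries, so these calls cannot be set against them. For Esrra in the averaged comparison, edgeR's quasi-likelihood test gave an adjusted p of 0.00968 in the main fit and 0.000781 without the filter. DESeq2 gave 5.67e-06. With the replicate number as a block 1 member, Mrpl14, passed in the averaged comparison, and the count over all genes went from 98 to 217. The block changed no other call among members. It joins knockout to wild-type libraries by number, a pairing that was not established.

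The median of members for the knockout effect in sedentary muscle was -0.0469 without lanes 7 and 8, and -0.0472 to 0.0327 when each library was left out. Median levels per kb by principal transcript were 20.3 (all), 21 (large) and 14.3 (small). Some named members changed sign. With lane as a term Mrpl33 became 0.0506 in sedentary muscle and 0.0143 in the averaged comparison, Mrps18c -0.0227 in treadmill muscle and Mrps31 -0.0127 in the averaged comparison. Without lanes 7 and 8, Mrps31 became -0.00409 in sedentary muscle and -0.0136 in the averaged comparison, and Mrpl33 0.0434 in treadmill muscle and 0.0157 in the averaged comparison. With each library left out, Mrpl4 ranged from -0.152 to 0.00385 and Mrps6 from -0.163 to 0.0188 for treadmill in wild type, Mrps31 from -0.00445 to 0.196 for knockout in sedentary and Mrpl33 from -1.29 to 0.037 for knockout in treadmill muscle. The cause was not tested. With 3 libraries a group, differences well under 1.25-fold in single members were below what most intervals resolve.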
